A study of Ovis aries with 6 samples.

Results

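Cycling granulosa cells (GCs) were examined in single-cell RNA sequencing libraries of the ovaries of 6 Hu ewes, and 255 of 38465 barcodes that passed the filters were of this kind. A barcode, which stands for one captured cell, was used when it held at least 1000 unique molecular identifiers (UMIs, counts of distinct RNA molecules) and at most 10% of them came from mitochondrial genes. It was taken as a GC when CDH2, FST, INHA and FSHR together held at least 4 UMIs and more than PECAM1, KDR, PTPRC, PDGFRA and INSL3 together. Of the 2026 GCs found in this way, those with at least 3 of the 6 transcripts MKI67, TOP2A, CDK1, CCNB1, UBE2C and BIRC5 were called cycling. They were compared with the 1293 GCs in which none of the 6 was detected, here called non-cycling, and the 478 GCs with 1 or 2 of the 6 were set aside.

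GCs surround the oocyte, and follicle growth depends on their division under follicle-stimulating hormone, activin and estradiol. A dividing cell copies its DNA in S phase, when replication genes are transcribed, and then passes through G2 and mitosis, when genes of the spindle, kinetochore and anaphase-promoting complex are transcribed. In the antrum-bearing follicle the cumulus GCs stay around the oocyte while the mural GCs line the wall and, after the luteinizing hormone (LH) surge, stop dividing and become luteal cells.

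The HLS group held 3 ewes with a litter size of at least 3 and the LLS group 3 ewes with a litter size below 2. All 6 were Hu sheep in estrus, with no treatment or genetic change in either group, and 1 ovary of each ewe gave 1 droplet library. A library mixes the GCs of all follicles of an ovary, so the follicle of a cell is unknown. The ewe was the replicate throughout, and n is 3 ewes per group or 6 ewes in the paired comparisons. Cycling GCs numbered 11, 65 and 86 in HLS ewes 1 to 3 and 15, 39 and 39 in LLS ewes 1 to 3, so that HLS ewe 1 and LLS ewe 1 carried the least information. The libraries held between 43329214 UMIs (LLS ewe 2) and 75549906 UMIs (LLS ewe 1), and the UMIs summed over cycling GCs ran from 210830 in LLS ewe 1 to 1481525 in HLS ewe 3. Of 51993 distinct barcode sequences, 297 occurred in more than 1 library, but 0 were cycling GCs in more than 1.

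Cycling GCs were deeper than non-cycling GCs of the same ewe, by a ratio of median UMIs between 1.23 and 2.11. The median number of UMIs on the 4 GC marker genes was 15 to 52 in cycling and 7 to 10 in non-cycling GCs across ewes, so the non-cycling barcodes lay closer to the limit for being a GC. The part of this gap in the results below was addressed only by the alternatives with a limit of 8 or 16 such UMIs, and where they end or move the call of a named gene that is stated with the gene. Both limits left HLS ewe 1 with fewer than 10 cycling GCs, as did leaving out GCs in which stromal markers led, so these alternatives rest on the other 5 ewes and differ in 2 ways. After thinning every cell to 2000 UMIs the comparison between states rests on 4 ewes, without HLS ewe 1 and LLS ewe 1. Cell type and state were called again on the thinned counts, so the cells compared were not the same. GCs fell from 710 to 190 in HLS ewe 3, and cycling GCs from 39 to 10 in LLS ewe 3. Values after thinning to 2000 UMIs below therefore mix depth with this new choice of cells. Leaving out those ewes with no thinning gave 2090 genes that differed between states, and without HLS ewe 1 alone 2302 genes differed, against 2437 with all 6 ewes.

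The name was checked against marker lists of other cells. Markers of stromal cells, among them COL1A1 and DCN, outnumbered the 4 GC markers in 57 of 255 cycling GCs (22.4%) and in 309 of 1293 non-cycling GCs (23.9%), so the cells were named by the rule and not all of them had a clear GC profile. The pooled shares hid opposite directions by ewe, since such cells were 19 of 39 cycling against 60 of 178 non-cycling GCs in LLS ewe 3 and 26 of 86 against 90 of 463 in HLS ewe 3, but 1 of 39 against 71 of 225 in LLS ewe 2. In cycling GCs the 8 stromal markers summed to 25.9, 8.71 and 31.4 UMIs per 10000 in HLS ewes 1 to 3 and to 25.5, 7.12 and 67.5 in LLS ewes 1 to 3, with COL1A1 the most abundant in every ewe, and in non-cycling GCs they summed to between 13.5 and 26.7. LLS ewe 3 thus stood highest. Markers of theca cells outnumbered those of GCs in 32 cycling GCs (12.5%, against 7.50% of non-cycling GCs) and luteal markers in 28 (11.0% against 8.20%). These excesses came from HLS ewe 3, with 19 of 86 cycling against 23 of 463 non-cycling GCs led by theca markers and 18 against 29 led by luteal markers, while in HLS ewe 2, LLS ewe 1 and LLS ewe 2 both shares were lower in cycling GCs. Perivascular markers led in 26 (10.2% against 13.5%) and endothelial markers in 8 (3.14% against 3.56%). The endothelial markers summed to between 0.854 and 2.08 per 10000 UMIs and the immune markers to between 0.0153 and 0.188, with 3 to 9 of the 10 immune markers at 0 in each ewe. The rule itself capped PECAM1, a member of the endothelial list, and the immune gene PTPRC. These low sums therefore partly restate the choice of cells.

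The transcripts that chose the cells are given as a description. TOP2A, the DNA topoisomerase of mitotic chromosomes, was detected in 246 of 255 cycling GCs (96.5%), BIRC5, an inhibitor of apoptosis that rides with the chromosomal passenger complex, in 230 (90.2%) and MKI67, the Ki-67 protein of the mitotic chromosome surface, in 208 (81.6%). CCNB1, the cyclin of mitotic entry, was found in 168 (65.9%) and its kinase CDK1 in 159 (62.4%). All 6 were found in 97 cells (38.0%). Across ewes the level of UBE2C, the ubiquitin-conjugating enzyme of the anaphase-promoting complex, was lowest at 562, had a median of 710.1 and was highest at 793 CPM (UMIs scaled to a common library total, by edgeR's TMM) in cycling GCs. TOP2A lay between 725 and 1937 CPM with a median of 1386, and MKI67 between 191 and 574 CPM with a median of 363. Of the GC markers used in the choice, FST, the activin-binding protein follistatin, had a median of 1588 CPM in cycling and 460.0 CPM in non-cycling GCs, and INHA, the inhibin alpha subunit, had 751 and 293 CPM. FSHR, the receptor of follicle-stimulating hormone, had a median of 94.8 against 114 CPM and CDH2, the cadherin of GC junctions, 423 against 417 CPM.

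On the cell cycle lists the limit of 3 transcripts separated neighbours that differed in degree, while the pooled level of TIMP1 dropped sharply at the limit. The 41 GCs with exactly 3 of the 6 held 41.1 UMIs per 10000 on a list of replication and S phase genes and 39.5 on a list of G2 and mitosis genes. The 84 GCs with exactly 2, just outside, held 20.4 and 17.1. Along the number of transcripts detected, from 0 to 6, the G2 and mitosis list went from 8.19 to 184 per 10000 UMIs, while the S phase list went from 7.47 with none to 47.4 with 5 and 36.5 with 6. TIMP1, an inhibitor of metalloproteinases, was at 69.5, 90.9 and 68.9 per 10000 UMIs in GCs with 0, 1 and 2 transcripts and at 3.46, 11.7, 6.40 and 2.49 in those with 3, 4, 5 and 6. The share of GCs with any TIMP1 changed far less, from 77.4% with 2 transcripts to 73.2% with 3. It was 63.3%, 72.1% and 61.9% with 4, 5 and 6. AMH, the hormone of growing follicles, was at 0.755, 0.810 and 1.62 with 0, 1 and 2 and between 1.96 and 2.69 with 3 or more. Those values pool the cells of 6 ewes and carry no test.

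**Figure D1:**
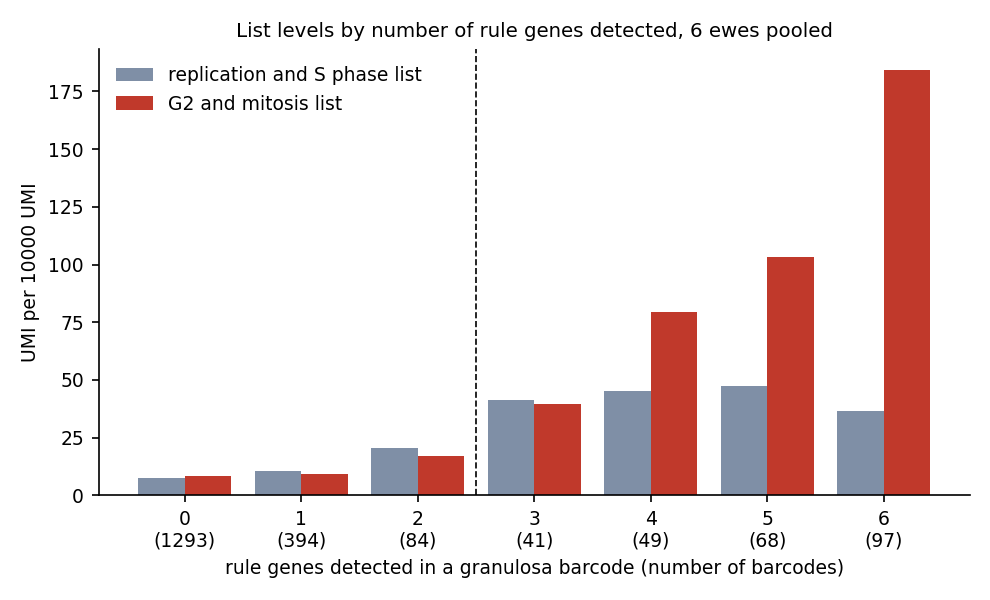
Summed level of the replication and S phase list and of the G2 and mitosis list (vertical axis, UMIs per 10000) in GCs grouped by how many of the 6 choosing transcripts were detected (horizontal axis, 0 to 6, with the number of GCs in brackets and a dashed line at the limit). The G2 and mitosis list climbed to 184 in cells with all 6, while the S phase list was highest at 47.4 in cells with 5.

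How large the cycling share was among GCs was asked first for HLS against LLS ewes. Cycling cells were 6.63%, 18.2% and 12.1% of the GCs in HLS ewes 1 to 3 and 9.09%, 10.8% and 14.7% in LLS ewes 1 to 3. HLS ewe 2 was highest and HLS ewe 1 lowest, so the LLS ewes lay inside the range of the HLS ewes. Neither the level nor this order held with a limit of 16 GC marker UMIs, under which the shares were 23.3%, 25.1% and 19.7% in HLS ewes 1 to 3 and 23.9%, 26.0% and 32.7% in LLS ewes 1 to 3, with LLS ewe 3 highest and HLS ewe 3 lowest. The Wilson 95% interval of HLS ewe 1 ran from 3.74% to 11.5% and that of HLS ewe 2 from 14.5% to 22.5%, which covers counting error only. The mean was 12.3% ± 5.79 (SD, n = 3) in HLS and 11.5% ± 2.86 (SD, n = 3) in LLS ewes, a difference of 0.807 percentage points that an exact two-sided permutation test did not separate from the spread between ewes (p = 0.9, Benjamini-Hochberg adjusted over 3 share tests 0.9, smallest possible p 0.1). The sign of that difference turned under several alternatives.

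Against endothelial cells, taken as barcodes with at least 4 UMIs on PECAM1, KDR and CDH5 and more than on the GC, immune, stromal and theca genes of the rule, the cycling share was higher in GCs in 5 of 6 ewes. Cycling cells were 3.08%, 7.45% and 7.45% of endothelial cells in HLS ewes 1 to 3 and 12.1%, 2.77% and 6.13% in LLS ewes 1 to 3. LLS ewe 1 was the only ewe with a higher endothelial share, and this turned with the stricter limits, under which its GC share was 17.2% (8 marker UMIs) and 23.9% (16). With 16 the GC shares of all 6 ewes, given above, lay above their endothelial shares by more than here. These limits cannot decide the comparison, since cycling GCs held more marker UMIs and were kept more often. With 8, LLS ewe 1 kept all 15 cycling GCs while its GCs fell from 165 to 87. The mean was 11.9% ± 4.11 (SD, n = 6) in GCs and 6.50% ± 3.44 (SD, n = 6) in endothelial cells, and the paired difference of 5.41 points had p = 0.0625 in an exact two-sided sign-flip test (adjusted over the 3 share tests 0.1875, smallest possible p 0.03125). When the 6 transcripts were read after thinning every cell to 5000 UMIs, leaving out shallower cells, the shares were 9.27% and 5.31%, the difference was 3.96 points and GCs were higher in 6 of 6 ewes (exact p = 0.03125, unadjusted and the smallest possible).

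**Figure D2:**
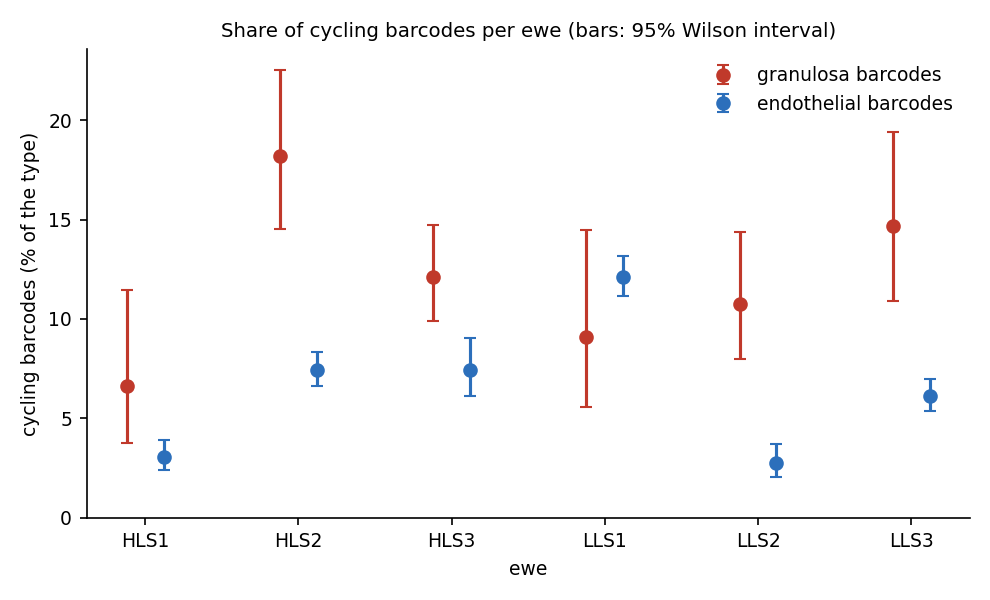
Share of cycling cells (vertical axis, percent) among GCs and among endothelial cells of each of the 6 ewes, with Wilson 95% intervals as bars. GCs were above endothelial cells in 5 of 6 ewes and LLS ewe 1 showed the reverse, 9.09% against 12.1%.

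By UMIs on the gene lists, most cycling GCs leaned to G2 and mitosis. In 215 of 255 cells (84.3%) the G2 and mitosis list held more UMIs than the S phase list, in 38 (14.9%) the S phase list held more and in 2 they were equal. For 14 cells (5.49%) the lists differed by at most 3 UMIs. None of the 6 choosing genes is in either list, but most of them peak in G2 or mitosis, so the division leans the way the cells were chosen. The lists also differ in size, with 68 G2 and mitosis genes and 43 S phase genes matched. Cells with more S phase UMIs were 39.0% of those with exactly 3 choosing transcripts and 2.06% of those with all 6. The share with more S phase UMIs was 15.3% ± 2.47 (SD, n = 3) in HLS and 16.9% ± 2.66 (SD, n = 3) in LLS ewes, and the difference of −1.60 points was within the spread (exact two-sided permutation p = 0.5, adjusted over 3 share tests 0.75).

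Genes were then compared between cycling and non-cycling GCs of the same ewes, on UMIs summed per ewe and state with edgeR's quasi-likelihood test and the ewe as a block. Of 9323 genes tested, 2437 (26.1%) passed a Benjamini-Hochberg adjusted p of 0.05, 1306 (14.0%) higher and 1131 (12.1%) lower in cycling GCs, and the median log2 fold change over all tested genes was −0.01. The p-values measure the spread between these 6 ewes. Fold changes below are log2 of cycling over non-cycling, ± SE with n = 6 ewes.

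Replication and spindle genes rose with the choice of cells, and their counts describe that choice. Of 40 replication and S phase genes tested 37 were higher and 0 lower (median log2 fold change 2.33), and of 66 G2 and mitosis genes 66 were higher (median 4.94). PCNA, the sliding clamp of replication, was at 183, 194 and 264 CPM (lowest, median and highest ewe) in cycling and 34.9, 40.8 and 76.8 CPM in non-cycling GCs. DUT, which clears dUTP before replication, was at 1178, 1302 and 2040.4 against 94.9, 154 and 299.7 CPM. PCLAF, a partner of PCNA, was at 242, 263 and 349 against 0.968, 1.42 and 3.68 CPM. The states did not overlap for any of these genes, and the log2 fold changes were 2.12 ± 0.15 for PCNA (adjusted p = 1.5e-08), 3.06 ± 0.17 for DUT and 7.16 ± 0.19 for PCLAF. After thinning every cell to 2000 UMIs, which left 4 ewes, DUT was 2.01 and PCLAF 3.88.

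CENPF, a kinetochore protein, had 590.2, 1396 and 1744 CPM in cycling against 4.19, 8.71 and 11.7 CPM in non-cycling GCs, and CENPE, the kinetochore motor, 275, 500.1 and 701 against 3.87, 4.85 and 6.98 CPM. UBE2S, which extends ubiquitin chains for the anaphase-promoting complex, had 862, 1023 and 1542 against 108, 138 and 226 CPM. These genes separated the states in every ewe too, CENPF by 7.26 ± 0.17, CENPE by 6.61 ± 0.20 and UBE2S by 2.88 ± 0.16. The S phase list was even across ewes, at 41.2, 40.4 and 39.5 UMIs per 10000 in HLS ewes 1 to 3 and 43.4, 42.9 and 43.8 in LLS ewes 1 to 3. The G2 and mitosis list ranged more widely, from 79.7 to 159 per 10000 UMIs with a median of 132.

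Chromatin and cytoskeleton genes of dividing cells followed, with 19 of 21 higher, 0 lower and a median of 1.58. HMGB1, an abundant DNA-bending protein, was at 2336, 2556 and 3530.0 CPM in cycling and 544, 668 and 1094 CPM in non-cycling GCs. STMN1, which destabilizes microtubules, was at 1285, 1359 and 1776 against 447, 719 and 1191 CPM. Neither gene overlapped between states, and the log2 fold changes were 1.93 ± 0.12 and 0.96 ± 0.14 (adjusted p = 6.1e-05 for STMN1).

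The upstream regulators of the cycle were divided. Among 22 G1 cyclins, kinases and E2F, MYB and FOXM1 factors, 12 were higher, 2 lower and 8 did not pass the test (median 0.71). CCND2, the D-type cyclin that follicle-stimulating hormone induces in GCs, was at 154, 201 and 297 CPM in cycling and 42.8, 61.5 and 122 CPM in non-cycling GCs. The lowest cycling ewe lay above the highest non-cycling ewe, and the log2 fold change was 1.66 ± 0.17 (adjusted p = 2.4e-06). CDK4, its kinase partner, was at 95.1, 108 and 169 against 42.7, 52.9 and 78.2 CPM, a change of 1.01 ± 0.13. TFDP2, a dimerization partner of E2F factors, was at 11.2, 26.6 and 37.1 against 44.2, 50.0 and 65.8 CPM and fell (−0.92 ± 0.19, adjusted p = 0.0019). CCND2 was 0.93 with a limit of 16 GC marker UMIs, and after thinning every cell to 2000 UMIs it was 0.77 and no longer passed (adjusted p = 0.074), against 1.52 in the same 4 ewes with no thinning.

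Inhibitors of cyclin-dependent kinases and genes of cell cycle exit went both ways, 5 of 21 higher and 6 lower (median −0.17), and the summed level of the list was lower in cycling GCs in 6 of 6 ewes. CDKN1A, the inhibitor p21, was at 81.6, 141 and 177 CPM in cycling and 233, 371 and 615 CPM in non-cycling GCs. No cycling ewe reached the lowest non-cycling ewe, and the change was −1.55 ± 0.13 (adjusted p = 2.1e-07). GADD45A, a growth arrest and DNA damage gene, was at 606, 656 and 989 against 1020.1, 1393 and 2107 CPM, also without overlap (−0.96 ± 0.11, adjusted p = 5.5e-06).

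CDKN1C, the inhibitor p57, was at 14.8, 28.9 and 107 against 55.2, 94.8 and 212 CPM and was lower in 5 of 6 ewes (−1.70 ± 0.31, adjusted p = 0.00078). That call was lost with both stricter GC limits, which also left out HLS ewe 1. CDKN1C was −1.14 with a limit of 8 marker UMIs (adjusted p = 0.057) and 0.08 with 16 (adjusted p = 0.95). FOXO1, a transcription factor that growth factor signals hold in check, was at 208, 255 and 359 against 322, 351 and 427 CPM with overlap (−0.47 ± 0.11, adjusted p = 0.0068), and it was −0.12 without the barcodes in which stromal markers led (adjusted p = 0.61), −0.41 with a limit of 16 marker UMIs (adjusted p = 0.084) and −0.07 after thinning, against −0.41 in the same 4 ewes with no thinning. CDKN2C, the inhibitor p18, rose by 1.97 ± 0.22 (adjusted p = 4.7e-06) and was named after its value was seen.

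**Figure D3:**
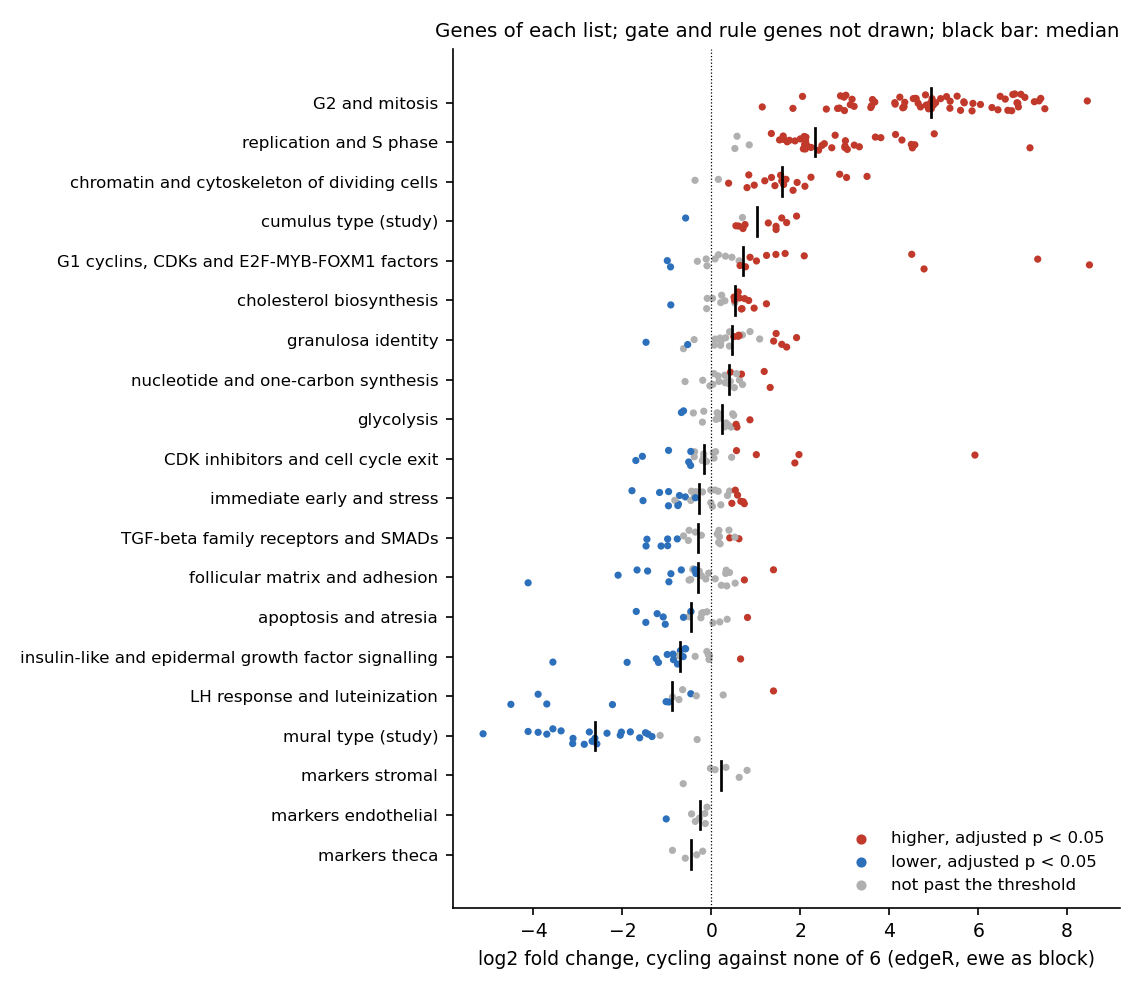
Log2 fold change of cycling over non-cycling GCs (horizontal axis) for the tested members of each gene list (rows), with 1 point a gene, red where higher and blue where lower past an adjusted p of 0.05, grey otherwise, and a black bar at the list's median. The S phase and G2 and mitosis lists lay to the right with medians of 2.33 and 4.94, and the mural list lay to the left at −2.62.

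Genes of GC identity were more often higher than lower in cycling GCs. Of 24 tested, 9 were higher, 2 lower and 13 did not pass (median 0.46), and the summed list was higher in 5 of 6 ewes. AMH was at 93.5, 223 and 317 CPM in cycling and 21.9, 64.7 and 172 CPM in non-cycling GCs. HSD17B1, which converts estrone to estradiol, was at 341, 633 and 788 against 134, 153 and 444 CPM. TNNI3, a troponin subunit that the study used as a marker of early GCs, was at 373, 537 and 759.5 against 144, 177 and 437 CPM. For these genes the ranges of the states overlapped, but within each of the 6 ewes the cycling cells were higher, by 1.58 ± 0.15 for AMH (adjusted p = 9.6e-07), 1.69 ± 0.18 for HSD17B1 (adjusted p = 3.7e-06) and 1.46 ± 0.14 for TNNI3 (adjusted p = 1.4e-06). After thinning every cell to 2000 UMIs, which left 4 ewes, AMH was 0.97 (adjusted p = 0.013), HSD17B1 0.99 (adjusted p = 0.0047) and TNNI3 0.83 (adjusted p = 0.011).

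FOXL2, the transcription factor that holds ovarian fate, was at 61.8, 141 and 167 CPM in cycling and 56.9, 84.9 and 120.3 CPM in non-cycling GCs and was higher in 5 of 6 ewes (0.60 ± 0.18, adjusted p = 0.023). The call was lost without any one LLS ewe, at 0.53, 0.53 and 0.40. GSTA1, a glutathione transferase, was at 3456, 5555 and 8308 against 1800.1, 3669 and 5637 CPM and was higher in 4 of 6 ewes (0.62 ± 0.21, adjusted p = 0.039), a call lost under 14 alternatives. AMH with a limit of 16 marker UMIs, which left 5 ewes, was 0.62 (adjusted p = 0.02), HSD17B1 0.91, TNNI3 0.83 and FOXL2 0.46 (adjusted p = 0.15), and FOXL2 was 0.56 with a limit of 8 (adjusted p = 0.06). Under that limit 6 of 24 identity genes were higher and 1 lower.

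The study named early, cumulus and mural GC types from these same libraries, so its marker lists are not independent evidence of a direction. Of the 3 genes whose high level it used to recognize early GCs, TNNI3 was higher and WT1 (0.21, adjusted p = 0.49) and WNT6 (0.21, adjusted p = 0.71) did not pass. The study also used a low level of VCAN for this type and names CD34 as a marker of it. VCAN, described below, was higher in cycling GCs. The cumulus list also holds AMH, HSD17B1, TNNI3 and GSTA1, described above. Of 12 cumulus markers 10 were higher and 1 lower in cycling GCs (median 1.02), the lower one being IGFBP2, a binding protein of insulin-like growth factors, at 662, 791 and 1427 against 837, 1034 and 2182 CPM (−0.58 ± 0.17, adjusted p = 0.022). IGFBP2 was 0.18 when the states were matched on depth, and its call was lost with a limit of 8 marker UMIs (adjusted p = 0.054).

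Of 23 mural markers 0 were higher and 21 lower, with a median of −2.62, and the list summed to 17.7, 22.5 and 27.5 UMIs per 10000 in cycling against 61.7, 126 and 255 in non-cycling GCs. TIMP1 was at 65.0, 386 and 989 CPM against 2323, 5881 and 16817 CPM. IGFBP5, a binding protein of insulin-like growth factors, was at 50.6, 114 and 246 against 763, 1657 and 3231 CPM. PLIN2, a coat protein of lipid droplets, was at 69.7, 154 and 192 against 555, 859.7 and 1791 CPM. No ewe's cycling GCs reached the lowest non-cycling value of these genes, and the changes were −3.89 ± 0.36 for TIMP1 (adjusted p = 6.7e-07), −3.56 ± 0.35 for IGFBP5 (adjusted p = 1.2e-06) and −2.68 ± 0.24 for PLIN2 (adjusted p = 3.6e-07). With at least 2 of the 6 transcripts required in place of 3, these were −2.23, −2.29 and −1.79. With a limit of 16 marker UMIs 15 of 17 tested mural markers were lower and 0 higher (median −1.45).

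**Figure D4:**
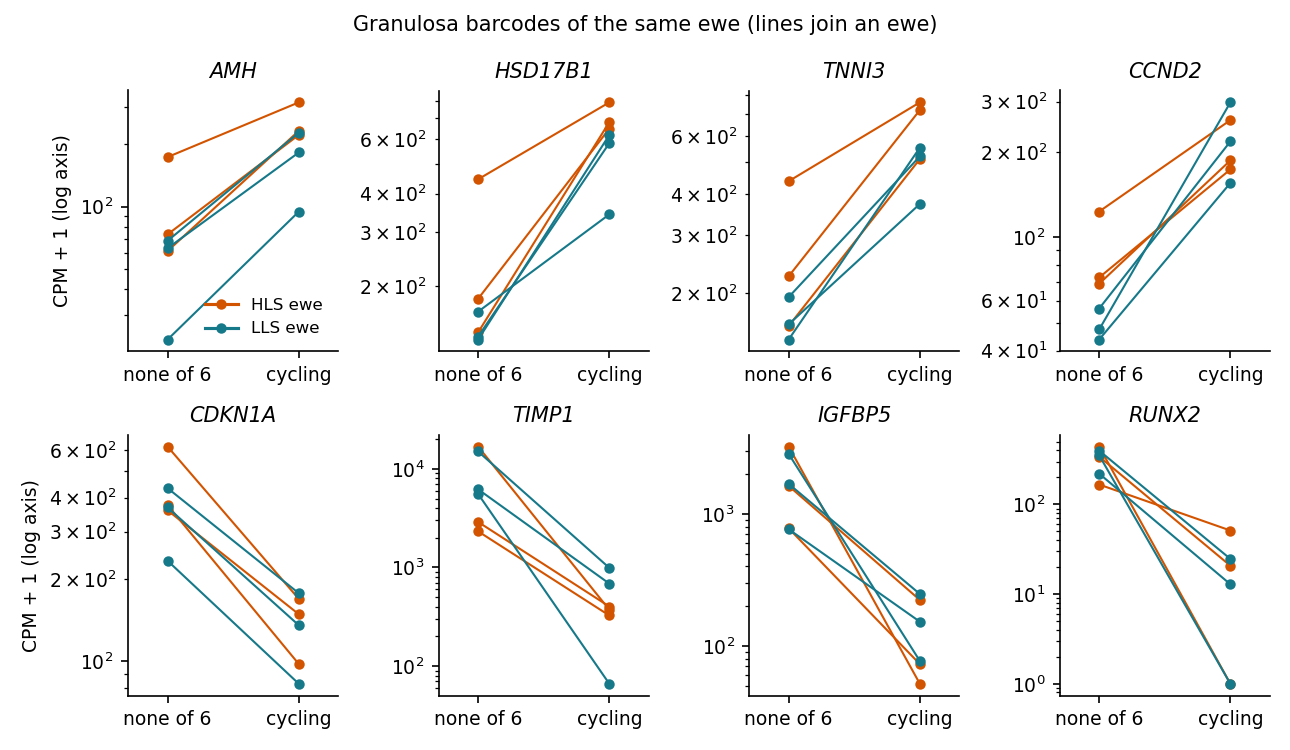
Level in CPM on a log axis (vertical) plus 1 of 8 named genes in non-cycling and cycling GCs, with a line joining both states of 1 ewe, orange for HLS and teal for LLS. Lines for AMH, HSD17B1, TNNI3 and CCND2 rise in all 6 ewes, and those for CDKN1A, TIMP1, IGFBP5 and RUNX2 fall in all 6, RUNX2 to 0 CPM in 2 of them.

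Genes that respond to the LH surge were mainly lower, with 1 of 13 higher and 7 lower (median −0.87), and the list was lower in sum in 6 of 6 ewes. The sum had a median of 107 UMIs per 10000 in non-cycling and 13.8 in cycling GCs. TIMP1, a member of this list already described, held 69.5 UMIs per 10000 in non-cycling GCs pooled over ewes. The lower sum therefore largely restates TIMP1, and a sum without it was not tested. RUNX2, a transcription factor of luteinizing GCs that like TIMP1 is in the mural list too, was at 0, 15.8 and 50.2 CPM in cycling and 166, 347 and 441 CPM in non-cycling GCs, with cycling GCs of 2 ewes at 0 (−3.70 ± 0.38, adjusted p = 1.7e-06). The size of the fitted change of RUNX2, as of OXT, LEF1 and PTGFR below, depends on the prior count, since cycling GCs of at least 1 ewe were at 0. OXT, the oxytocin gene that sheep luteal cells transcribe strongly, was at 0, 6.97 and 15.8 against 19.3, 32.4 and 5776 CPM, and LLS ewe 3 alone held the highest value. Its change was −4.51 ± 0.99 (adjusted p = 0.003) with that ewe and −1.84 (adjusted p = 0.00034) without it. The exception in the list was VCAN, the matrix proteoglycan versican, at 275, 598 and 1201 against 91.5, 217 and 436 CPM and higher in 6 of 6 ewes (1.40 ± 0.15, adjusted p = 4.6e-06). It was 0.57 with a limit of 16 marker UMIs and 0.06 after thinning (adjusted p = 0.88), against 1.24 in the same 4 ewes with no thinning.

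Steroidogenesis genes moved little as a list, with 2 of 13 higher, 1 lower and a median of −0.03. The higher ones included HSD17B1, and the lower one was NPC2, which exports cholesterol from lysosomes, at 23.3, 31.3 and 45.4 CPM in cycling against 61.0, 138 and 201 CPM in non-cycling GCs, without overlap (−1.95 ± 0.18). The genes that make cholesterol showed 10 of 18 higher and 1 lower (median 0.52). HMGCS1, which makes the precursor of mevalonate, was at 95.6, 157 and 209 against 58.0, 101 and 133 CPM and higher in 6 of 6 ewes (0.69 ± 0.12, adjusted p = 0.00039). HMGCS1 with a limit of 16 marker UMIs was 0.32 (adjusted p = 0.3), and 1 of 17 genes of the list was higher.

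The list of the transforming growth factor beta family holds receptors and SMAD mediators, which carry the signals of activins, bone morphogenetic proteins and AMH. It also holds ID1, ID2 and ID3, which are neither. Of its genes 2 of 20 were higher and 6 lower (median −0.29). The summed level of the list was higher in cycling GCs in 5 of 6 ewes (median 26.8 against 24.6 UMIs per 10000). ID1, ID2 and ID3 were its most abundant members in cycling GCs, at medians of 760, 704 and 709 CPM (scaled over cycling GCs alone). That sum is therefore not a measure of receptor and SMAD transcripts. BMPR1B, a type I receptor of bone morphogenetic proteins that affects ovulation rate in sheep, was at 11.2, 35.9 and 37.9 CPM in cycling and 68.2, 94.1 and 131 CPM in non-cycling GCs. All cycling values lay below all non-cycling values (−1.47 ± 0.17, adjusted p = 7.8e-06). SMAD7, the inhibitory SMAD, was at 1.58, 25.9 and 46.7 against 47.4, 76.4 and 79.3 CPM, also without overlap (−1.45 ± 0.30, adjusted p = 0.002).

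The activin mediators SMAD2 and SMAD3 differed in direction. SMAD2 was at 89.9, 243 and 289 CPM in cycling and 92.9, 137 and 189 CPM in non-cycling GCs and higher in 5 of 6 ewes (0.62 ± 0.14, adjusted p = 0.0045). SMAD3 was at 56.2, 90.0 and 132 against 116, 153 and 196 CPM and fell (−0.77 ± 0.15, adjusted p = 0.0011). The common mediator SMAD4 was at 84.3, 133 and 167 against 71.2, 106 and 114 CPM (0.41 ± 0.12, adjusted p = 0.017), a call lost under 6 alternatives, and with a limit of 16 marker UMIs neither SMAD2 (0.45, adjusted p = 0.077) nor SMAD4 (0.43, adjusted p = 0.071) passed.

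Insulin-like and epidermal growth factor signalling had 1 of 19 higher and 12 lower (median −0.70), and its summed level was lower in 6 of 6 ewes. The sum had a median of 48.7 UMIs per 10000 in non-cycling and 21.1 in cycling GCs. This list also holds the binding proteins IGFBP2 and IGFBP5, described above. IGFBP5 held 17.5 UMIs per 10000 in non-cycling GCs pooled over ewes, so the lower sum is not a measure of receptors. IGF1R, the receptor of insulin-like growth factor 1, was at 45.0, 150.2 and 182 CPM in cycling and 214, 253 and 365 CPM in non-cycling GCs, without overlap (−0.99 ± 0.15, adjusted p = 0.00014). INSR, the insulin receptor, was at 61.8, 94.4 and 117 against 87.3, 134 and 206 CPM (−0.63 ± 0.16, adjusted p = 0.0079). The change of IGF1R was −0.62 with a limit of 16 marker UMIs, and INSR did not pass with limits of 8 (−0.57, adjusted p = 0.058) or 16 (−0.59, adjusted p = 0.053) or when the states were matched on depth (−0.19, adjusted p = 0.53).

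In the Notch, WNT and Hippo list 2 of 20 genes were higher and 5 lower (median −0.12). JAG1, a Notch ligand, was at 9.29, 17.1 and 24.3 CPM in cycling and 27.1, 72.3 and 117 CPM in non-cycling GCs, without overlap (−1.77 ± 0.27, adjusted p = 0.00012), and LEF1, a transcription factor of the WNT pathway, was at 0, 3.06 and 6.28 against 9.17, 12.7 and 27.2 CPM (−1.86 ± 0.36, adjusted p = 0.001). Without the barcodes in which stromal markers led, JAG1 was −1.01 (adjusted p = 0.027). Follicular matrix and adhesion genes had 2 of 26 higher and 9 lower (median −0.31). The higher ones were VCAN and ITGA6, a laminin-binding integrin subunit, at 124, 243 and 475 against 97.1, 135 and 366 CPM and higher in 6 of 6 ewes (0.74 ± 0.15, adjusted p = 0.0015). ITGA6 was 0.23 with a limit of 16 marker UMIs (adjusted p = 0.32) and 0.06 after thinning, against 0.78 in the same 4 ewes with no thinning. SDC4, a cell surface proteoglycan, was at 57.9, 118 and 169 against 223, 295 and 400.4 CPM, without overlap (−1.43 ± 0.16, adjusted p = 4.7e-06).

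Genes of apoptosis and follicle atresia were more often lower than higher, 7 against 1 of 17 (median −0.46), and the list was lower in sum in 6 of 6 ewes. BCL2L11, the pro-apoptotic protein BIM, was at 25.1, 29.6 and 61.6 CPM in cycling and 74.6, 86.8 and 151 CPM in non-cycling GCs, without overlap (−1.69 ± 0.18, adjusted p = 2.4e-06). CTSB, the lysosomal protease cathepsin B, was at 44.5, 52.2 and 66.4 against 76.4, 121 and 211 CPM, without overlap (−1.22 ± 0.19, adjusted p = 0.00019). Not all members that fell promote death, since MCL1, a survival factor, was at 219, 436 and 613 against 467, 666 and 754 CPM (−0.63 ± 0.15, adjusted p = 0.0047). MCL1 was −0.28 with a limit of 16 marker UMIs (adjusted p = 0.19).

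Immediate early and stress genes were mixed, 6 of 30 higher and 10 lower (median −0.27), with a summed level that was higher in cycling GCs in 5 of 6 ewes. HSP90AA1, a chaperone, was at 3905, 6028 and 12985 CPM in cycling and 2772, 3683 and 5356 CPM in non-cycling GCs and higher in 6 of 6 ewes (0.72 ± 0.13, adjusted p = 0.00054). FOS, an immediate early gene, was at 1988, 4284 and 6385 against 2252, 2539.8 and 3504 CPM and higher in 5 of 6 (0.59 ± 0.16, adjusted p = 0.013). HSPB1, a small heat shock protein, was at 571, 849 and 2232 against 895, 1744 and 3033 CPM and fell (−0.75 ± 0.18, adjusted p = 0.0058). Without the barcodes in which stromal markers led, HSP90AA1 was 0.43, FOS was 0.28 and no longer passed (adjusted p = 0.11; 0.38 and 0.054 without HLS ewe 1 alone), and 2 genes of the list were higher and 9 lower, against 3 and 10 without HLS ewe 1 alone. FOS did not pass with limits of 8 (0.34) or 16 marker UMIs (0.41) either. After thinning FOS was −0.27, and in the same 4 ewes with no thinning 0.37 (adjusted p = 0.069).

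In metabolism, 3 of 18 glycolysis genes were higher and 2 lower (median 0.24), near the 14.0% and 12.1% over all tested genes, and 4 of 20 genes of nucleotide and one-carbon synthesis were higher with 0 lower (median 0.39). TPI1, a glycolytic isomerase, was at 273, 404 and 608 CPM in cycling and 166, 214 and 313 CPM in non-cycling GCs and higher in 5 of 6 ewes (0.87 ± 0.19, adjusted p = 0.003). SLC2A1, the glucose transporter GLUT1, was at 28.1, 37.2 and 45.7 against 37.4, 56.4 and 72.2 CPM (−0.62 ± 0.17, adjusted p = 0.012). PHGDH, the first enzyme of serine synthesis, was at 125, 203 and 399 against 44.5, 88.3 and 135 CPM and higher in 6 of 6 ewes (1.32 ± 0.16, adjusted p = 8.9e-06). MTHFD1, a folate enzyme, was at 50.6, 53.9 and 68.3 against 15.4, 23.8 and 30.4 CPM, without overlap (1.19 ± 0.17, adjusted p = 7.6e-05). With a limit of 16 marker UMIs TPI1 was 0.53 (adjusted p = 0.071), MTHFD1 0.62 (adjusted p = 0.09) and SLC2A1 −0.39 (adjusted p = 0.26), and without the barcodes in which stromal markers led SLC2A1 was −0.32 (adjusted p = 0.21).

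Among the largest rises outside the lists were the following genes of division. DEPDC1, found in mitotic cells, was at 65.8, 98.9 and 116 CPM in cycling GCs and at 0, 0 and 0.368 CPM in non-cycling GCs, and NEK2, a centrosomal kinase, was at 39.3, 90.2 and 123 against 0, 0.183 and 0.737 CPM. KIFC1, a spindle motor, was at 86.1, 98.4 and 111 against 0, 1.07 and 3.87 CPM, and ESCO2, which acetylates cohesin in S phase, at 65.0, 73.4 and 84.3 against 0, 0.718 and 0.967 CPM. Non-cycling GCs of some ewes were at 0 for each of them, so that the fitted changes depend on the prior count and are not given.

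Among the deepest falls outside the lists were genes of several kinds. SERPINA1, the protease inhibitor alpha-1 antitrypsin, was at 0, 1.40 and 26.9 CPM in cycling and 36.7, 78.1 and 381 CPM in non-cycling GCs, without overlap (−4.23 ± 0.30, adjusted p = 2.1e-08), and it was −1.67 with at least 2 of the 6 transcripts required. BMP2, a bone morphogenetic protein, was at 0, 3.97 and 7.17 against 9.23, 33.0 and 56.6 CPM. ELF1 was at 0, 6.22 and 16.9 against 34.9, 51.1 and 81.4 CPM, and MAF at 1.58, 7.74 and 14.8 against 30.5, 44.9 and 79.6 CPM, both being transcription factors. APOD, an apolipoprotein, was at 15.8, 51.2 and 129 against 167, 343 and 673 CPM. These genes did not overlap between states, with changes of −2.98 ± 0.42 for BMP2, −3.03 ± 0.27 for ELF1, −2.65 ± 0.30 for MAF and −2.67 ± 0.28 for APOD. SERPINA1, BMP2 and ELF1 were at 0 in the cycling GCs of at least 1 ewe, so the size of their fitted changes depends on the prior count.

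Markers of other cells were compared in the same way. Of 7 stromal markers tested 0 were higher and 0 lower, COL1A1, a fibrillar collagen, being at 318, 1121 and 2589 CPM in cycling and 402, 607 and 769 CPM in non-cycling GCs (0.63 ± 0.24, adjusted p = 0.064) and DCN, the proteoglycan decorin, at 123, 346 and 1112 against 390.1, 556 and 716 CPM (−0.63 ± 0.29, adjusted p = 0.12). Of 5 theca markers 0 passed. Of 9 endothelial markers 1 was lower, VWF, which is stored in endothelial granules, at 4.64, 8.97 and 25.3 against 7.75, 25.7 and 46.1 CPM (−1.01 ± 0.29, adjusted p = 0.017), a call lost under 9 alternatives. In both states the rule set PECAM1, KDR, PDGFRA and INSL3 against the GC markers. Counts of stromal, theca and endothelial markers therefore partly describe the choice of cells.

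Of 3 perivascular markers 1 was lower, MYH11, the smooth muscle myosin, at 55.3, 137 and 227 CPM in cycling against 129, 226 and 365 CPM in non-cycling GCs (−0.92 ± 0.21, adjusted p = 0.0046). Of 4 luteal markers 2 were lower, OXT and PTGFR, the prostaglandin F receptor, which was at 0, 6.03 and 8.07 against 11.1, 38.3 and 96.7 CPM, without overlap (−2.55 ± 0.39, adjusted p = 0.00012). Luteal markers summed to 69.3 UMIs per 10000 in non-cycling GCs of LLS ewe 3, most of it OXT, and to 2.90 in its cycling GCs. Their part in the lower LH response list was tested only by leaving that ewe out, as given for OXT.

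Whether HLS and LLS ewes differed within cycling GCs was asked next. Of 7123 genes tested with edgeR's quasi-likelihood test, 0 (0%) passed an adjusted p of 0.05, with 184 at an unadjusted p under 0.05, and DESeq2 called 0 with 81 at an unadjusted p under 0.05. In 353 genes (4.96%) all 3 HLS ewes lay above all 3 LLS ewes and in 355 (4.98%) all 3 LLS ewes lay above, 9.94% in either direction. Levels here were scaled over the cycling GCs alone. HSD17B1 was at 704, 788 and 653 CPM in HLS ewes 1 to 3 and 623, 581 and 344 CPM in LLS ewes 1 to 3, without overlap, and CENPF was at 611, 1347 and 1228 against 1458, 1478 and 1760 CPM, also without overlap. Neither passed (HSD17B1 0.48 ± 0.28 and CENPF −0.55 ± 0.31 as log2 of HLS over LLS, adjusted p = 1 for both). For GSTA1 (8605, 4505 and 6653 against 3487, 3646 and 7011 CPM), TIMP1 (384, 324 and 404 against 65.6, 988 and 690 CPM) and CCND2 (192, 257 and 174 against 300.0, 216 and 156 CPM) the groups overlapped. The step from non-cycling to cycling GCs was also compared between the groups, and 0 of 10318 genes (0%) passed, with 444 at an unadjusted p under 0.05. With 11 and 15 cycling cells in 1 ewe of each group, differences between the groups that are smaller than this spread were not detectable at this depth.

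Last, the step from non-cycling to cycling was compared between GCs and endothelial cells of the same ewes, to see which changes came with division in both. The endothelial cells numbered 16156, of which 1187 were cycling and 12130 non-cycling by the same rule. The step differed for 727 of 11859 genes (6.13%), 219 more upward (1.85%) and 508 more downward (4.28%) in GCs. With the size factors of DESeq2 in the same test 682 differed, 317 more upward and 365 more downward, and the median difference over all genes was −0.0027 in place of −0.10, so the balance of directions depends on the scaling. The balance narrowed with those size factors and turned with doublets left out (406 upward and 372 downward), with at least 2 of the 6 transcripts (296 and 263), without LLS ewe 1 (436 and 333), LLS ewe 2 (156 and 133) or HLS ewe 3 (235 and 228), and so the balance is not read as a result. The differences below are to be read against that median of −0.10. The count was 289 to 769 when 1 ewe was left out, the lowest without LLS ewe 2. Below, the step in each cell type comes from a fit of that type alone, and the difference of steps from 1 fit of both.

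Of 43 replication and S phase genes 0 differed upward and 4 downward (median −0.47), and of 68 G2 and mitosis genes 4 differed upward and 6 downward (median −0.08), which the size factors of DESeq2 turned to 7 upward and 4 downward (median 0.02). UHRF1, which couples replication to DNA methylation, had a step of 4.14 in GCs and 5.78 in endothelial cells (difference −1.66 ± 0.36, adjusted p = 0.01), and the call was lost without LLS ewe 2 (−1.19, adjusted p = 0.085). SMC2, a condensin subunit, had 2.98 and 4.05 (−1.12 ± 0.19, adjusted p = 0.0018). In the other direction UBE2S had 2.88 in GCs and 1.72 in endothelial cells (1.11 ± 0.19, adjusted p = 0.0022) and KPNA2, an importin, 2.84 and 1.53 (1.26 ± 0.16, adjusted p = 0.0002).

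Chromatin and cytoskeleton genes included some of the clearest differences, 3 of 21 upward and 3 downward. STMN1 was at 718, 852 and 1208 CPM in cycling and 76.0, 96.1 and 148 CPM in non-cycling endothelial cells, a step of 3.20, while in GCs it was high in both states with a step of 0.96 (difference −2.29 ± 0.17, adjusted p = 6.8e-07, lower in 6 of 6 ewes). HMGB3, an HMG-box chromatin protein, had 1.84 in GCs and 3.33 in endothelial cells (−1.54 ± 0.25, adjusted p = 0.0015, but −1.15 and 0.064 with a limit of 16 marker UMIs), whereas its relative HMGB2 had 3.50 and 2.47 (0.97 ± 0.13, adjusted p = 0.00025). TUBB4B, a beta tubulin, rose by 1.63 in GCs with 0.12 in endothelial cells (1.45 ± 0.16, adjusted p = 0.0001).

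Genes of GC identity and of the mural list accounted for other differences. AMH is not compared between the types, since it was at only 0, 0.802 and 6.70 CPM in cycling endothelial cells. CCND2 was at 9.49, 16.3 and 37.5 CPM in cycling and 9.52, 20.3 and 60.5 CPM in non-cycling endothelial cells, so that it had −0.24 there against 1.66 in GCs (difference 1.86 ± 0.31, adjusted p = 0.0016, higher in 6 of 6 ewes). With a limit of 16 marker UMIs the difference of CCND2 was 1.22 and no longer passed (adjusted p = 0.087). HSD17B1 had 1.69 and 0.13 (1.51 ± 0.30, adjusted p = 0.0058), and NR5A2, a nuclear receptor of GCs, 0.50 and −0.75 (1.21 ± 0.24, adjusted p = 0.0058), both lost with limits of 8 and 16 marker UMIs.

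Of 23 mural markers, a list the study made from these libraries, 20 differed downward and 0 upward (median −2.37). TIMP1 had −3.89 in GCs and −0.04 in endothelial cells (difference −3.89 ± 0.47, adjusted p = 0.00014), IGFBP5 −3.56 and −0.21 (−3.39 ± 0.62, adjusted p = 0.003) and PLIN2 −2.68 and −0.10 (−2.61 ± 0.37, adjusted p = 0.00046). Under a limit of 16 marker UMIs 5 mural markers differed downward and 0 upward, and without HLS ewe 1 alone 17 and 0.

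Immediate early genes differed upward in 12 of 30 and downward in 1 (median 0.57), which became 3 upward and 1 downward without HLS ewe 1 and 2 upward and 2 downward without the GCs in which stromal markers led. FOS had 0.59 in GCs and −0.73 in endothelial cells (1.25 ± 0.24, adjusted p = 0.004), and JUN, its partner, 0.16 and −0.63 (0.72 ± 0.19, adjusted p = 0.03, in 5 of 6 ewes). MYC, a growth-promoting transcription factor, had 0.08 and −0.97 (0.99 ± 0.23, adjusted p = 0.015). The calls of JUN and MYC were each lost under 8 alternatives. PHGDH had 1.32 in GCs and 3.04 in endothelial cells, where it was at 33.0, 49.3 and 82.1 CPM in cycling against 3.50, 7.22 and 10.2 CPM in non-cycling cells (−1.76 ± 0.24, adjusted p = 0.00031, lower in 6 of 6 ewes).

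Among genes of other lists or of none, SRGN, the granule proteoglycan serglycin, had 0.99 in GCs and −0.72 in endothelial cells (1.65 ± 0.27, adjusted p = 0.0014). The opposite order was seen for SH3KBP1, an adaptor of receptor endocytosis, with −1.25 and 1.26 (−2.54 ± 0.25, adjusted p = 4.2e-05), for IGFBP3 with −1.89 and 0.41 (−2.33 ± 0.41, adjusted p = 0.0022), for BCL2, the survival factor, with −1.47 and 0.35 (−1.85 ± 0.29, adjusted p = 0.0013, but −1.08 and 0.18 with a limit of 16 marker UMIs) and for SERPINA1 with −4.23 and −0.53 (−3.89 ± 0.65, adjusted p = 0.0018). SERPINA1 was low in endothelial cells, at 0.268, 3.99 and 5.21 CPM in cycling cells, and no longer passed with at least 2 of the 6 transcripts required (difference −1.61, adjusted p = 0.22).

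**Figure D5:**
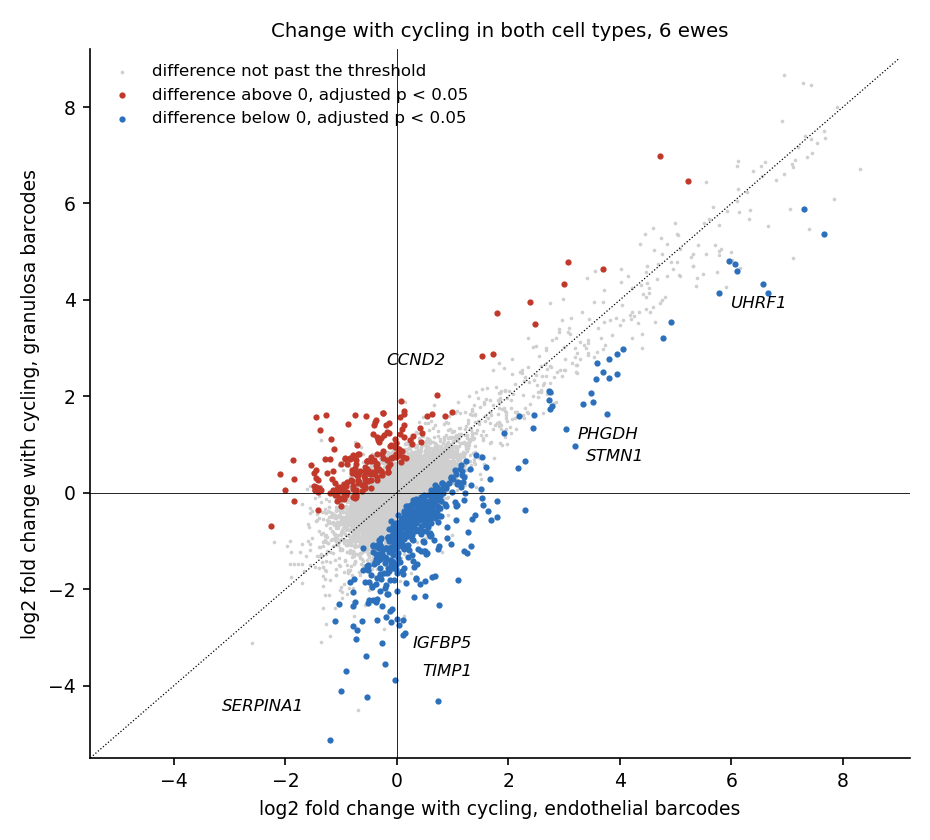
Log2 fold change of cycling over non-cycling cells in endothelial cells (horizontal axis) and in GCs (vertical axis), 1 point for each of 9170 genes tested in both, with the 668 whose steps differed past an adjusted p of 0.05 in red (above 0) or blue (below 0). TIMP1 and IGFBP5 lie near 0 on the endothelial axis and far below 0 on the GC axis, and STMN1 lies lower on the GC axis (0.96) than on the endothelial axis (3.20).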

How the data were processed

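Single-cell RNA libraries (10x Genomics 3' chemistry) of 1 ovary from each of 6 Hu ewes were used. The authors deposited, per ewe, a matrix of raw UMI counts per gene and barcode, made with Cell Ranger 5.0.0 per the labels, for 30574 genes. The genome build is not given in the sources used here. Totals per library are 43329214 to 75549906 UMIs, which sets the counting error. Barcodes with at least 1000 UMIs and at most 10% mitochondrial UMIs were kept, and the study's other limits removed 0 of the cycling GCs. Doublets were left in, and scrublet (scanpy 1.11.5) calls at the expected rate marked 12 of 255 cycling GCs, whose removal was an alternative.

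UMI counts were summed per ewe, cell type and state and tested with edgeR 4.0.16 (R 4.3.3; filterByExpr, TMM, quasi-likelihood, ewe as block, Benjamini-Hochberg at 0.05), after tests on simulated data. The ewe block pairs both states or both cell types of 1 animal. CPM are scaled by TMM. Shares were tested with exact permutation or sign-flip tests (scipy 1.17.1), and 60 alternatives (with DESeq2 1.42.0 among the tools) were listed at the start and 13 added after seeing the data, among them the limits of 16 UMIs and of 5000 UMIs for thinning and the removal of stromal-marker-led GCs. Genes eligible to be named were, in each of 32 lists, up to 6 most abundant members past the threshold (where none passed, the most abundant 3), and outside the lists the up to 10 largest changes in each direction with at least 20 CPM and 1 direction in every ewe. The text gives part of them. An eligible gene is not reported here. Cells, lists and tests were chosen with earlier results of these data known. P-values measure the spread between ewes.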

Additional observations from a re-analysis of the deposited data

Results flagged for a closer look

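The step from non-cycling to cycling differed between GCs and endothelial cells, by the test of the difference itself (edgeR's quasi-likelihood test, n = 6 ewes), for 727 genes, and the 23 of them named in the report are given here as the log2 step in GCs minus that in endothelial cells. The direction was the same in 6 of 6 ewes for each except JUN (5 of 6). After thinning every cell to 2000 UMIs, which left 3 ewes, 13 of the named genes no longer passed.

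The difference was above 0 for CCND2 (1.86), SRGN (1.65), HSD17B1 (1.51), TUBB4B (1.45), KPNA2 (1.26), FOS (1.25), NR5A2 (1.21), UBE2S (1.11), MYC (0.99), HMGB2 (0.97) and JUN (0.72). It was below 0 for SERPINA1 (−3.89), TIMP1 (−3.89), IGFBP5 (−3.39), PLIN2 (−2.61), SH3KBP1 (−2.54), IGFBP3 (−2.33), STMN1 (−2.29), BCL2 (−1.85), PHGDH (−1.76), UHRF1 (−1.66), HMGB3 (−1.54) and SMC2 (−1.12). Cycling GCs also held more GC marker UMIs per cell than non-cycling GCs, and with a limit of 16 such UMIs, which also dropped HLS ewe 1, 174 genes differed in place of 727, against 398 without HLS ewe 1 alone. The part of this gap in the single genes was not tested beyond the alternatives given.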

How the results depend on the processing

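The count of genes that differed between cycling and non-cycling GCs (2437) stayed within 1.5 times except after thinning every cell to 2000 UMIs (186 of 910 genes tested, in 4 ewes, 2090 in those ewes with no thinning) and with a limit of 16 GC marker UMIs (1046, without HLS ewe 1), and it was 1796 to 2302 without 1 ewe. The count that differed in step from endothelial cells (727) moved more, to 468 with at least 4 of the 6 transcripts, 20 after thinning (3 ewes left), 425 without HLS ewe 1 and LLS ewe 1, 303 and 174 with limits of 8 and 16 marker UMIs, 457 without stromal-marker-led GCs and 289 to 769 without 1 ewe. Those with at least 4 transcripts, with either limit and without stromal-marker-led GCs also lacked HLS ewe 1, whose removal alone gave 398. Within cycling GCs, HLS against LLS gave 34 genes with no filter on low counts and 1 with the replicate number as a block. The labels give the numbers no meaning, and same-numbered ewes correlated at 0.01867, 0.2221 and 0.1895, not all above the 0.1 set for a pairing, although 4 of 6 libraries matched their own number best, a hint from the data only. The difference in step between HLS and LLS gave 28 genes with no filter, 3 with at least 2 of the 6 transcripts, and 0 to 2 without 1 ewe.

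The difference of the cycling share between HLS and LLS (0.807 points) turned to −0.406 after thinning to 2000 UMIs, −1.32 after thinning to 5000, −2.07 and −4.80 with limits of 8 and 16 marker UMIs, and ran from −2.14 to 3.65 without 1 ewe, in a design whose smallest p of 0.1 cannot pass. The share in GCs against endothelial cells (5.41 points) reached the smallest possible unadjusted p after thinning, at 9.98 (2000 UMIs) and 3.96 (5000 UMIs). With 2000 UMIs the marker limits of both cell types were applied again to the thinned counts, which left 22 GCs in HLS ewe 1 in place of 166. Like the limits of 8 and 16 marker UMIs, that setting cannot decide the comparison. With 5000 UMIs the cell types were kept as called before thinning. The S phase share (−1.60 points) turned to 2.12 with at least 4 of the 6 transcripts and to 0.457 after thinning. Among named genes the direction turned for CDKN1C (0.0759) and COL1A1 (−0.22) with 16 marker UMIs, COL1A1 (−0.63) without stromal-marker-led GCs, a choice of cells in which COL1A1 itself counts, FOS (−0.27) after thinning and IGFBP2 (0.18) with depth matched. The causes were not tested. Without the ewe block between states 1708 genes differed, and the number of cycling GCs in HLS ewe 1 (11) and LLS ewe 1 (15) limits the group comparison.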
